A study of Mus musculus with 6 samples.

Results

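The 7 genes Mtmr3, Inpp5d, Inpp4b, Pik3c3, Pik3cd, Pik3r1 and Pik3ap1 encode phosphatases and kinases of phosphoinositides, together with a regulatory subunit and an adaptor of the kinases. They are 7 of the 21900 protein-coding genes of the gene table used. Their members were the CpG positions within 5 kb of each annotated gene span (GRCm38) that had at least 10 reads in all 6 libraries, which gave 786 positions out of 1463044. The 4 kinase genes, counting subunit and adaptor, held 589 positions and the 3 phosphatase genes held 197. Mtmr3 and Pik3c3 were chosen by the KO and WT methylation levels of a 1 kb tile in each, measured in these same libraries, so their values are given as a description with no test. The other 5 genes were added as relatives in the same pathway.

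The study measured DNA methylation by enhanced reduced representation bisulfite sequencing, which reads CpG-rich fragments cut with the restriction enzyme MspI. Bisulfite sequencing scores 5-methylcytosine and its oxidised form 5-hydroxymethylcytosine alike as methylated. The cells were germinal centre B cells taken from the spleen of C57BL/6 mice, with 3 libraries labelled Tet2 wild type (WT) and 3 labelled Tet2 knock-out (KO). TET2 is a dioxygenase that oxidises 5-methylcytosine on the way to its removal. The labels give no age, sex, immunisation, Cre driver or pooling of mice, and do not say whether the replicates were separate animals. Any p-value below therefore reflects variation among the libraries as sequenced, part of which may be technical.

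Phosphoinositides are membrane lipids whose inositol ring is phosphorylated by kinases and dephosphorylated by phosphatases at named positions. In B cells, class I phosphoinositide 3-kinase is recruited after the B cell receptor is engaged and makes the trisphosphate that brings AKT and BTK to the membrane. The class III enzyme makes phosphatidylinositol 3-phosphate for endosome traffic and autophagy, and the phosphatases remove or interconvert these lipids.

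Coverage was even across the libraries, at a mean of 100.6 to 125 reads per listed position. The labels were checked at Tet2, where 6 positions on chromosome 3 from 133486189 to 133486297 were listed with 32 to 168 reads in each WT library and in no KO library. Another 108 Tet2 positions were listed in all 6 libraries, and 1820 positions across the genome were listed in all WT and no KO libraries. Among B cell genes, Cd79a, Pax5, Cd79b and Cd22 each had a tile at 0.0355% to 3.49% methylation, while the only covered tile of Ms4a1 was at 70.1%. Bcl6, S1pr2 and Mef2b, genes of germinal centre B cells, had a tile at 0.121% to 0.577%. Of 6 T cell genes, Cd3g, Cd3d, Cd4 and Lck also had a tile at 0.205% to 2.94%, while the lowest tiles of Cd8a and Cd3e were at 83.9% and 94.5%. Of 5 myeloid genes, Lyz2, Mpo, Csf1r and Itgam were at 82.2% to 91.0% and Cd14 was at 0.207%, so these levels do not separate the cell types cleanly. A change of level within each cell and a change in the mix of cells cannot be told apart in these bulk libraries.

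Levels below are the percent of reads that were methylated, in order of replicates 1, 2 and 3, and differences are KO minus WT in percentage points. A tile is a 1 kb stretch with at least 3 covered positions, and it was tested when its mean level lay between 5% and 95%. A feature was called when its adjusted p was under 0.05 and the group means were at least 10 points apart. Over all 83114 tested tiles, 0.685% were called higher and 0.00241% called lower in KO. All 3 KO libraries lay above all 3 WT libraries in 12.7% of tested tiles and below them in 3.54%. The KO mean was above the WT mean in 64% of tested tiles. Among 525213 tested positions, 0.284% were called higher and 0.0105% lower.

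Mtmr3, a myotubularin-related phosphatase that removes the 3-phosphate of phosphoinositides, lies on chromosome 11 from 4480867 to 4594863. A tile inside it, chr11:4534001-4535000, was mostly unmethylated in WT and mostly methylated in KO. The tile was methylated at 22.3%, 32.7% and 44.3% in WT and at 83.7%, 76.5% and 83.5% in KO. The WT libraries averaged 33.1% ± 10.99 and the KO libraries 81.2% ± 4.09 (SD of 3 libraries here and below), which is 48.1 points apart. No KO library came near the highest WT library, and depth was alike, with 546 to 799 reads per library and a KO to WT ratio of 1.03.

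The 5 positions of this Mtmr3 tile lie within 132 bp, and the tile starts 53134 bp from the nearer annotated end of the gene. Position 4534816 on the forward strand had the tightest WT values, 27.6%, 25.2% and 28.7%, against 87.1%, 78.4% and 76.2% in KO. At 4534812 the levels were 19.8%, 34.0% and 54.3% in WT and 88.7%, 88.9% and 92.8% in KO. At 4534932 on the reverse strand they were 8.33%, 25.4% and 34.9% in WT and 61.2%, 47.5% and 77.4% in KO. The difference at the 5 positions ran from 36.2 to 54.1 points, and at each of them the groups did not overlap. Positions this close can be read on the same fragments, so they are not 5 separate measurements.

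No other covered stretch of Mtmr3 held a difference of that size, and only 4 tiles were covered over its 113997 bp. The 80-position tile at the upper annotated end of the gene had means of 0.0629% in WT and 0.1497% in KO. The tile from 4488001 had 70.1%, 80.5% and 84.3% in WT and 88.1%, 83.1% and 90.9% in KO, and its groups overlapped. The tile from 4482001 differed by -0.21 points. Averaged over all 99 Mtmr3 positions the level was 13.9% ± 0.881 in WT and 17.0% ± 0.547 in KO, since 80 of them were under 5%.

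**Figure D1:**
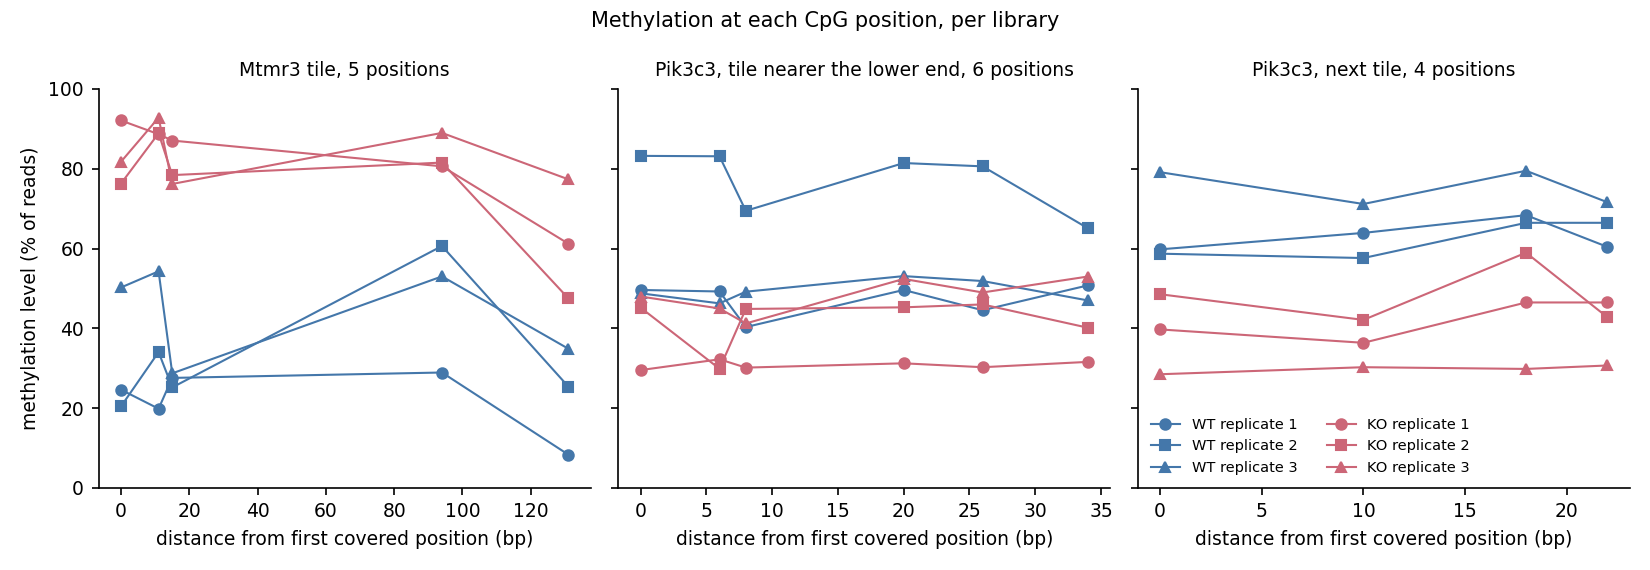
Methylation level (% of reads) at each covered CpG position against the distance in bp from the first one, for the Mtmr3 tile and the 2 neighbouring Pik3c3 tiles, with 1 line per library (blue WT, red KO). KO lines lie above all WT lines at the 5 Mtmr3 positions and below them at the 4 positions of the right-hand Pik3c3 tile, whereas in the middle panel WT replicate 2 stands above the other 5 libraries.

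Inpp5d encodes SHIP-1, the haematopoietic 5-phosphatase that converts the trisphosphate into a bisphosphate, and lies on chromosome 1 from 87620312 to 87720510. No tile or position of Inpp5d was called. Its tile at the lower annotated end was unmethylated, with 0% in all 6 libraries over 5 positions. The largest difference was in the tile from 87639001, with 24.7%, 19.8% and 31.6% in WT and 27.7%, 33.3% and 25.3% in KO. These groups were interleaved, at 25.4% ± 5.93 and 28.8% ± 4.13 (adjusted p = 0.830, limma-moderated quasi-binomial test). An unmethylated tile from 87658001 had 0%, 0.299% and 0% in WT and 1.31%, 1.23% and 2.38% in KO. It was too low to be tested, and its groups did not overlap. Over its 42 positions the gene averaged 60.9% ± 1.19 in WT and 62.9% ± 0.527 in KO.

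Inpp4b, the 4-phosphatase that acts on the bisphosphate made by SHIP-1, spans chromosome 8 from 81342266 to 82134312 and was thinly covered for its length, with 56 positions. No Inpp4b tile was called. The tile from 82101001 had 79.7%, 76.9% and 72.5% in WT and 81.1%, 80.7% and 81.5% in KO, a difference of 4.69 points with no overlap (adjusted p = 0.648, limma-moderated quasi-binomial test). The tile from 81814001 had 86.5%, 87.0% and 89.1% in WT and 92.1%, 90.3% and 93.3% in KO, also with no overlap (adjusted p = 0.732, same test). A stretch from 81768001 with 2 positions had too few for a tile. Its levels were 1.25%, 2.16% and 3% in WT and 10.3%, 6.90% and 14.1% in KO, low in both genotypes and without overlap. Inpp4b stretches with the opposite order also occurred, with 97.3%, 100% and 100% in WT and 97.2%, 92.4% and 91.2% in KO at 2 positions from 82014001. A single position from 81942001 differed by -4.46 points, also without overlap. The densest tile, 16 positions at the lower annotated end, was at 0.143% in WT and 0.522% in KO.

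Pik3c3, the class III catalytic subunit and the only kinase of its class, lies on chromosome 18 from 30265615 to 30348126. In contrast to Mtmr3 it was less methylated in KO than in WT at a tile near its lower annotated end, from 30268001 to 30269000. The levels were 63.1%, 62.3% and 75.3% in WT and 42.3%, 48.1% and 29.8% in KO. The mean was 66.9% ± 7.29 in WT and 40.1% ± 9.34 in KO, a difference of -26.9 points without overlap.

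The 4 positions behind that Pik3c3 value lie on the reverse strand within 23 bp, so they are read on the same fragments and are not 4 separate measurements. Their differences ran from -28.0 to -26.2 points. The adjoining tile from 30267001 holds 6 positions within 35 bp, with 47.4%, 77.1% and 49.4% in WT and 30.8%, 41.9% and 48.1% in KO. Its groups overlapped, and WT replicate 2 stood above the other 5 libraries. Further into Pik3c3 the tiles were nearly fully methylated, with 92.2% in WT and 90.0% in KO from 30271001, and 96.9% and 96.8% from 30302001. A single position in the tile from 30276001 went the other way, with 94.5%, 71.4% and 92.5% in WT and 100%, 100% and 97.8% in KO. Across its 23 positions Pik3c3 averaged 73.9%, 79.8% and 73.8% in WT and 64.7%, 69.2% and 66.8% in KO.

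**Figure D2:**
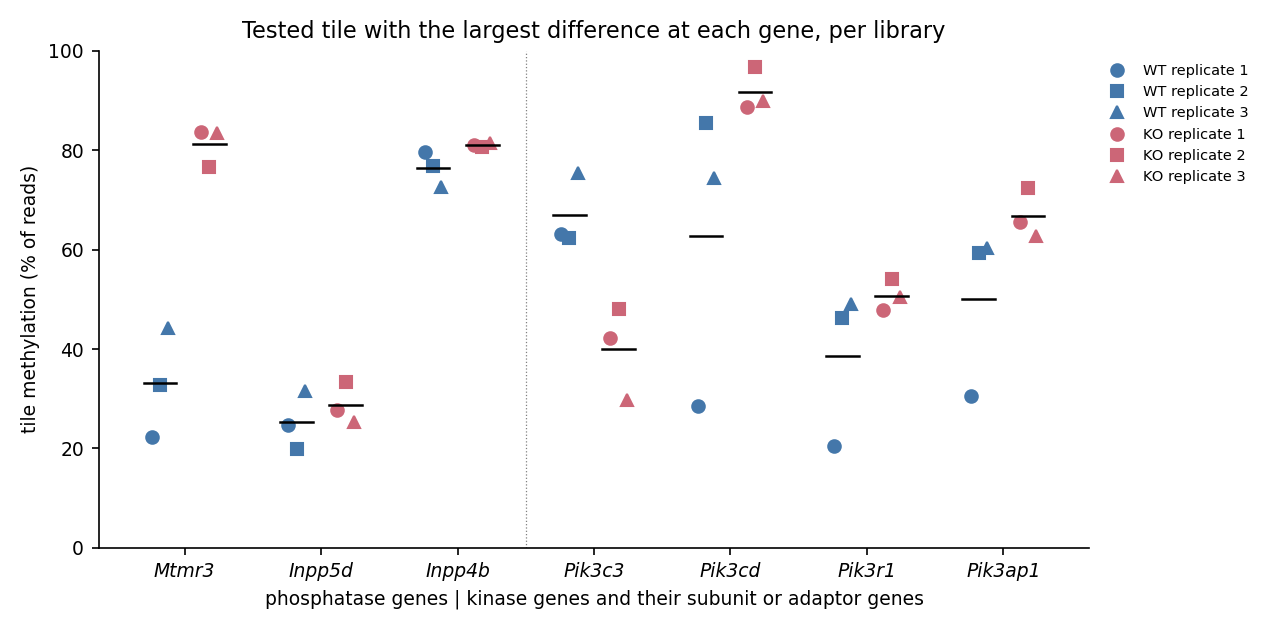
Methylation (% of reads) in each library of the tested tile with the largest difference at each gene, phosphatase genes left and kinase genes right, with WT blue, KO red, a symbol per replicate and a black line at each group mean. WT replicate 1 is the lowest library at Mtmr3, Pik3cd, Pik3r1 and Pik3ap1, and Pik3c3 is the only one of the 7 genes whose KO mean is lower.

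Pik3cd encodes the delta catalytic subunit of class I phosphoinositide 3-kinase, the main catalytic subunit in lymphocytes, and lies on chromosome 4 from 149649168 to 149702566. One of its annotated starts is set here beside a start of Pik3r1, which encodes the alpha regulatory subunit, and of Pik3ap1, which encodes the adaptor BCAP that links B cell receptor signalling to the kinase. The promoter windows of these 3 genes are shown because this CpG-rich window of Pik3cd was partly methylated in both genotypes while the other 2 were unmethylated. Each run gives the 250 bases before the annotated start on the minus strand, read 5′ to 3′ (RefSeq, GRCm38.p6), with CpG sites in capitals.
Pik3cd, chr4:149676090-149676339: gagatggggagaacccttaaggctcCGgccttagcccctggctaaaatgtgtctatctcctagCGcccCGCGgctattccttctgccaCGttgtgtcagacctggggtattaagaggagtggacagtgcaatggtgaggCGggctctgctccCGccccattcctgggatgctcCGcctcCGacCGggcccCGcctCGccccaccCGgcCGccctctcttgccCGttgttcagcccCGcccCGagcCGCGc
Pik3r1, chr13:101768218-101768467: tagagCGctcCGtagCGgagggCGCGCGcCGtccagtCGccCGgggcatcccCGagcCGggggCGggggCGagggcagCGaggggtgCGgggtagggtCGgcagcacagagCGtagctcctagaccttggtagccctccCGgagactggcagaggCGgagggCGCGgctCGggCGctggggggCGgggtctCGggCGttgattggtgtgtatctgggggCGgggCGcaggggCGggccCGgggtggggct
Pik3ap1, chr19:41385103-41385352: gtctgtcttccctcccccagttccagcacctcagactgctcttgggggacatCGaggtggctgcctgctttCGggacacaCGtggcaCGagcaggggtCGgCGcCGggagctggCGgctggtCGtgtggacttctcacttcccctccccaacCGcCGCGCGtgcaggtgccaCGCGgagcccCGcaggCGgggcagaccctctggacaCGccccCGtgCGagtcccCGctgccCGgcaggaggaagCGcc
The window to 50 bases past the start holds 26 CpG sites in Pik3cd, 34 in Pik3r1 and 26 in Pik3ap1. CCGG, the sequence MspI cuts, occurs 3, 4 and 2 times in these windows and in 62.2% of all 21238 promoter windows of the table. It reads the same on both strands, and a match is a description of the letters only.

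At this Pik3cd start, 22 covered positions averaged 18.4%, 25.3% and 26.6% in WT and 22.8%, 33.4% and 24.7% in KO. The groups overlapped, at 23.4% ± 4.43 and 27.0% ± 5.67. Methylation was uneven along the window, from 70.1% ± 7.59 in WT at 225 bases before the start to 7.99% ± 7.98 at 28 bases before it. The 36 covered positions of the Pik3r1 window averaged 0.0744% in WT and 0.204% in KO. The 15 of the Pik3ap1 window averaged 0.138% and 0.139%. Methylation of this order at a covered start was uncommon in these cells: of 3982 windows with at least 20 covered positions, 26 (0.653%) reached 20% in WT. Pik3cd has 2 other annotated starts in the table and Pik3r1 has 1, with no covered position in those windows. The tile from 149698001, which holds another start of Pik3cd, was at 0% in WT and 0.0208% in KO over 8 positions. None of these positions lay in the promoter window of that start. The tile at the upper annotated end of Pik3cd, from 149702001, was at 0.756% and 0.834%. The 11 covered positions at the Inpp4b start averaged 0% in WT and 0.563% in KO.

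**Figure D3:**
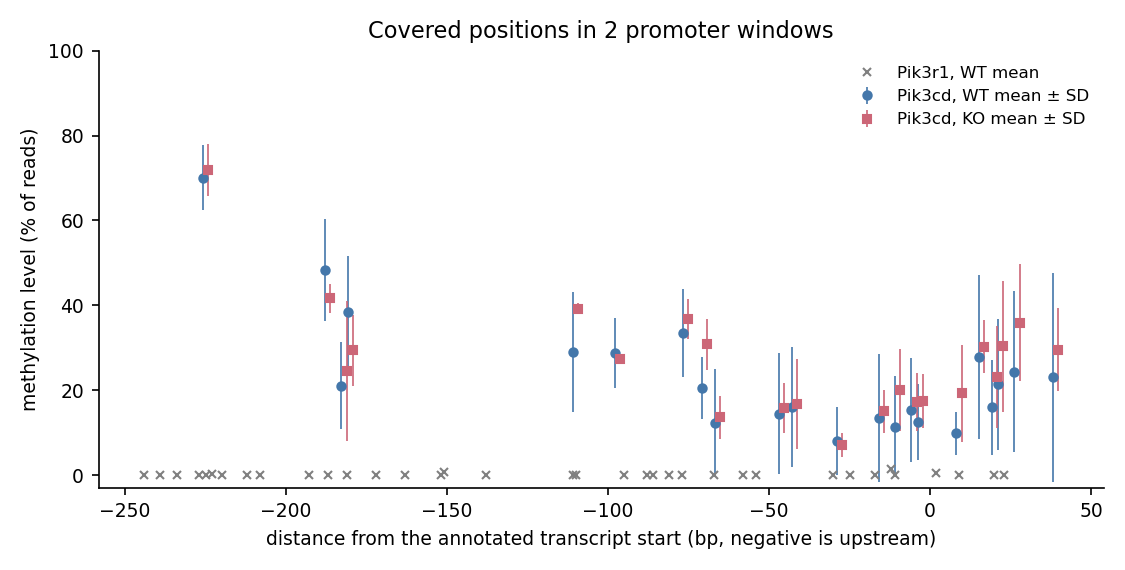
Methylation level (% of reads) at covered positions against the distance in bp from the annotated transcript start, with WT (blue) and KO (red) means ± SD of 3 libraries for Pik3cd and grey crosses for the WT mean of Pik3r1. Pik3cd falls from 70.1% at 225 bases upstream to under 40% from 182 bases onward with WT and KO bars overlapping at most positions, while Pik3r1 stays near 0 throughout.

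Pik3cd had 12 tested tiles, all with a higher KO mean when reads were pooled (beside 64% of all tested tiles), and none was called. The tile with the largest difference, from 149689001, had 28.6%, 85.4% and 74.4% in WT and 88.7%, 96.6% and 89.8% in KO. The groups did not overlap, but the WT values spread widely, at 62.8% ± 30.1 against 91.7% ± 4.31 in KO (28.9 points, adjusted p = 0.229, limma-moderated quasi-binomial test). It rests on 3 positions with 43 to 179 reads per library, and without WT replicate 1 the difference was 11.8 points. The tile from 149691001 had tighter values, 80.3%, 81.0% and 85.6% in WT and 90.8%, 88.0% and 91.2% in KO (7.66 points, no overlap, adjusted p = 0.364, same test).

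The Pik3cd tile from 149658001 joins 5 positions of low methylation and 4 that were nearly fully methylated in both genotypes. Pooled reads gave 42.1%, 48.4% and 66.7% in WT and 63.9%, 70.0% and 68.8% in KO, a difference of 15.2 points (adjusted p = 0.254, limma-moderated quasi-binomial test). Weighting its 9 positions equally gave 46.0% in WT and 45.5% in KO, so the direction turned with the weighting. The 23-position tile at the partly methylated start, from 149676001, had 16.0%, 25.05% and 24.1% in WT and 21.1%, 32.7% and 23.1% in KO (adjusted p = 0.640, same test). Over its 157 positions Pik3cd averaged 52.3%, 56.5% and 56.8% in WT and 58.0%, 59.7% and 58.5% in KO.

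Pik3r1, on chromosome 13 from 101680761 to 101768217, was the least methylated of the 7 genes per position, because 228 of its 266 covered positions were under 5%. The 101-position tile at its upper end was at 0.197% in WT and 0.181% in KO. Another unmethylated tile of 53 positions, from 101694001, was at 0.135% and 0.298%. Of its 6 tested tiles 5 had a higher KO mean (beside 64% of all tested tiles) and none was called.

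The tile of Pik3r1 with the largest difference, from 101691001, had 20.4%, 46.3% and 48.996% in WT and 47.8%, 54.0% and 50.4% in KO. The groups overlapped (12.1 points, adjusted p = 0.483, limma-moderated quasi-binomial test), and without WT replicate 1 the difference was 3.07 points. The tile from 101706001 held 11 positions with the groups apart, at 20.1%, 33.0% and 27.0% in WT and 35.0%, 35.8% and 36.4% in KO (9.03 points, adjusted p = 0.182, same test). Inside it, 5 positions from 101706160 to 101706264 were at 33.1% to 59.2% in WT and were 13.3 to 26.5 points higher in KO, while the other 6 were under 3% in both genotypes. At 101706263 and 101706264 the groups overlapped. The levels at 101706263 were 34.2%, 59.1% and 79.5% in WT and 82.8%, 76% and 80.5% in KO. One highly methylated tile, from 101686001, was lower in every KO library, with 93.8%, 98.9% and 96.3% in WT and 91.3%, 89.4% and 92.3% in KO (-5.33 points, adjusted p = 0.426, same test).

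Pik3ap1, on chromosome 19 from 41272541 to 41385102, came nearest to a call among the 5 genes that can be tested. Of its 12 tested tiles 10 had a higher KO mean and 5 had every KO library above every WT library, beside 64% and 12.7% of all tested tiles. The tile from 41366001 had 10.02%, 14.9% and 11.6% in WT and 23.4%, 23.6% and 19.3% in KO. Its means were 12.2% ± 2.51 and 22.1% ± 2.39 (9.91 points, adjusted p = 0.0813, limma-moderated quasi-binomial test). Within it, position 41366289 stood at 23.9%, 27.3% and 27.7% in WT and at 77.3%, 58.4% and 69.1% in KO (42.0 points, adjusted p = 0.0551, same test on single positions). The neighbouring position 41366319 had 15.4%, 21.2% and 4.82% in WT and 55.1%, 51.3% and 47.1% in KO. These positions and 41366313 lie within 31 bp, while the last 4 positions of the tile were under 6.5% in every library apart from 1 WT value of 7.79%.

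The call at this Pik3ap1 tile depended on the tile grid and on the libraries used. A tile shifted by 500 bp, from 41365501, held 5 positions and was called higher by 24.2 points (adjusted p = 0.0361, limma-moderated quasi-binomial test). The original tile differed by 11.3 points and was called without WT replicate 2 (adjusted p = 0.0493, same test).

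The tile with the largest difference at Pik3ap1 was another, from 41348001, with 30.5%, 59.3% and 60.3% in WT and 65.5%, 72.4% and 62.7% in KO (16.8 points, adjusted p = 0.351, limma-moderated quasi-binomial test). WT replicate 1 was far below the other libraries there, and the difference without it was 7.02 points. The nearby 10-position tile from 41346001 had 43.4%, 74.3% and 73.2% in WT and 85.9%, 73.2% and 80.8% in KO, with overlapping groups (adjusted p = 0.293, same test). The tile at the upper annotated end, with 21 positions, was at 0.0949% in WT and 0.116% in KO. Over its 143 positions Pik3ap1 averaged 51.4% ± 2.81 in WT and 55.3% ± 0.0714 in KO.

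**Figure D4:**
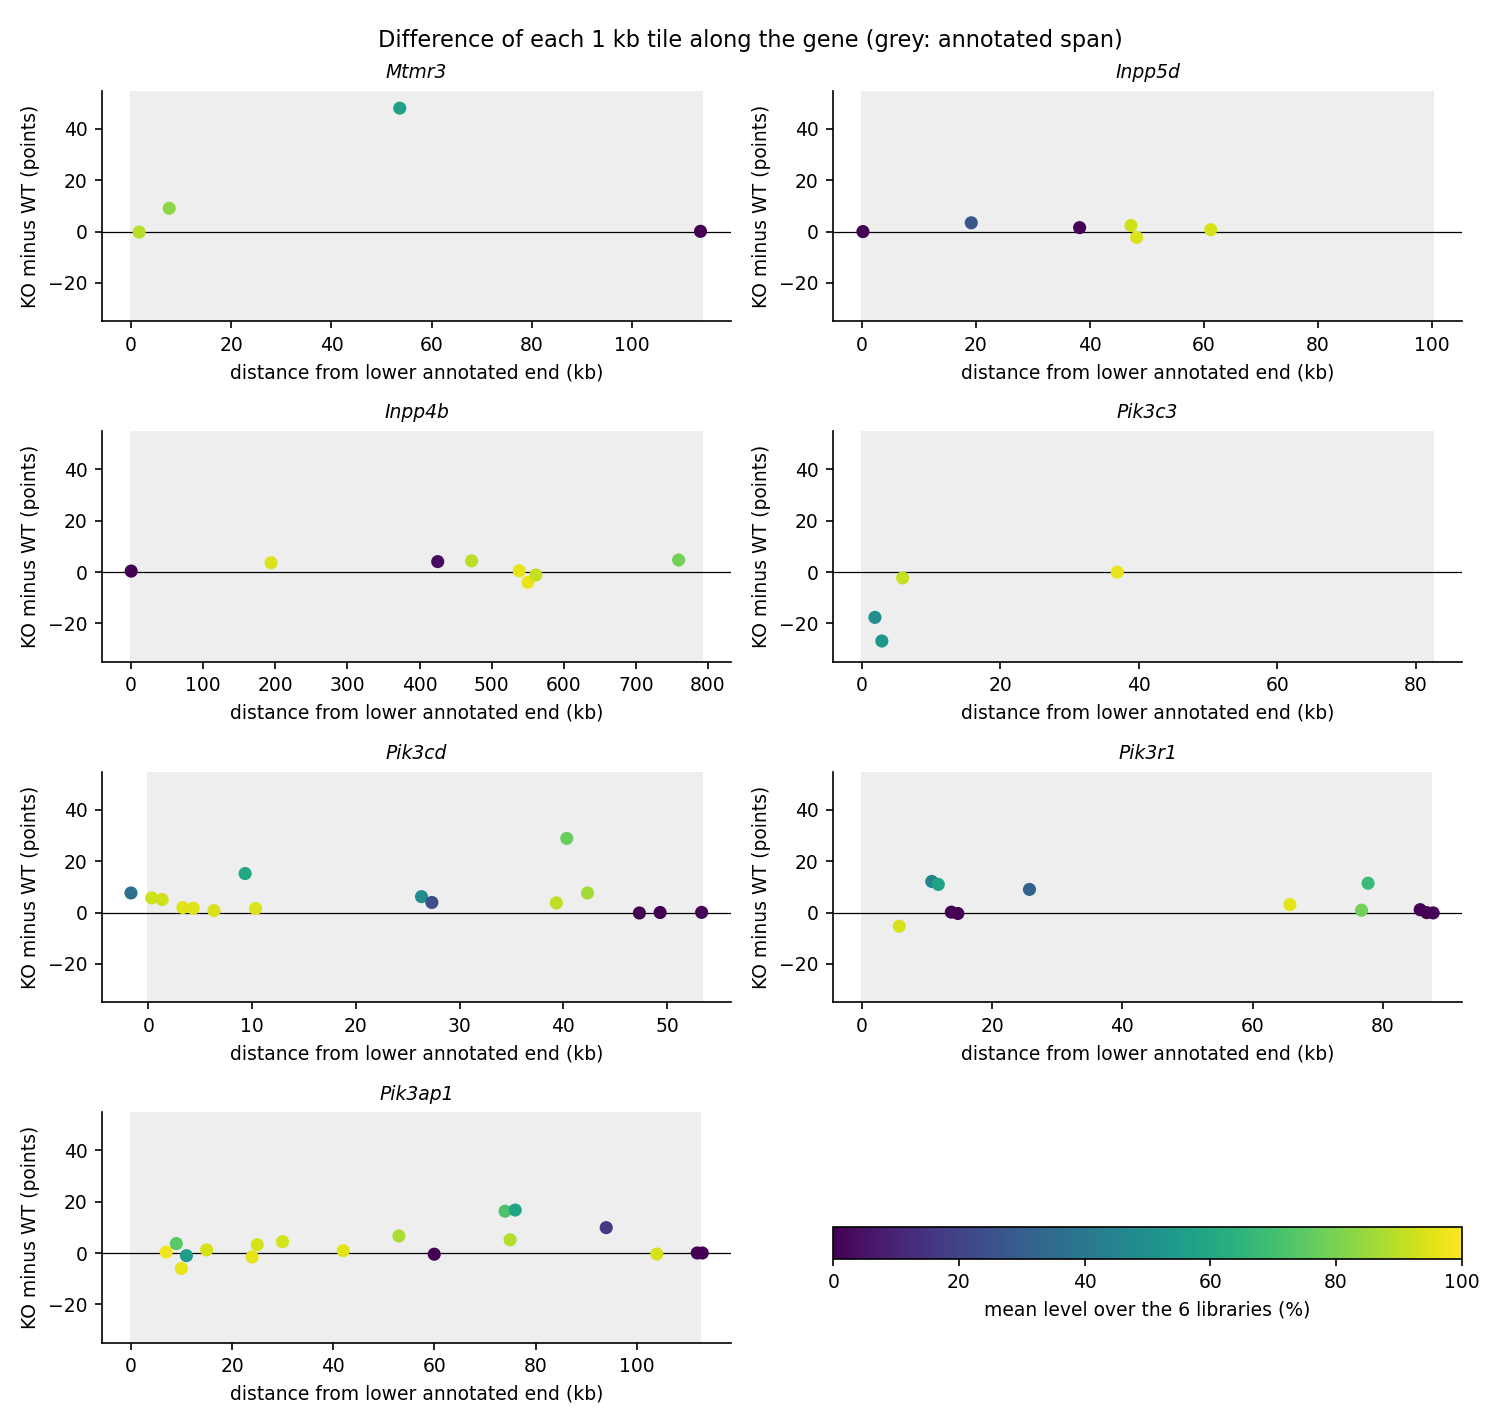
KO minus WT difference in percentage points of each 1 kb tile against its distance in kb from the lower annotated end of the gene, with the annotated span in grey and points coloured by mean level over the 6 libraries. Tiles at 1 annotated end of Mtmr3, Inpp5d, Inpp4b, Pik3cd, Pik3r1 and Pik3ap1 sit at or near 0 with levels near 0%, and the differences of over 10 points lie inside the spans, at intermediate levels.

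The kinase genes had 50 tiles and the phosphatase genes 18, of which 33 and 11 were tested. Without Pik3c3, the mean level of the 30 tested kinase tiles was 61.97%, 73.9% and 73.1% in WT and 75.8%, 76.4% and 76.3% in KO. Without Mtmr3, that of the 8 tested phosphatase tiles was 79.8%, 82.6% and 82.6% in WT and 83.6%, 84.3% and 83.2% in KO. WT replicate 1 was the lowest in both classes, and by more at the kinase genes. Without Pik3c3 and Mtmr3, the median difference over tested tiles was 5.13 points at the kinase genes and 2.91 at the phosphatase genes. Over all tested tiles it was 1.28 points. Without WT replicate 1 these medians were 2.06, 0.89 and 0.88 points. With Pik3c3 and Mtmr3 included the class medians were 4.44 and 3.42 points, or 1.87 and 1.05 without that library. The difference between kinases and phosphatases was not tested, since the members were chosen with the results known. Each class held 1 called tile, lower in Pik3c3 and higher in Mtmr3, and these are the tiles that chose those genes. The only called positions, 3 on the forward strand, lie in the same Mtmr3 tile, so nothing is read from either count.

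Leaving out Pik3c3 and Mtmr3, 33 of 38 tested tiles of the other 5 genes had a higher KO mean, which is 86.8% beside the 64% of all tested tiles. All KO libraries lay above all WT libraries in 12 of these 38 tiles, or 31.6%, beside 12.7% of all. They lay below in 1 tile, beside 3.54% of all. No tile of the 5 genes was called by the limma-moderated quasi-binomial test. At an unadjusted p under 0.05 there were 13 of 30 tiles at the kinase genes and 0 of 8 at the phosphatase genes, beside 11.5% of all tested tiles. The unmoderated test also called 0, and at an unadjusted p under 0.05 it had 3 kinase tiles (10%) and 1 phosphatase tile, beside 9.18% of all tested tiles. Limma on log2 ratios called 0, and had 5 kinase tiles (16.7%) and 0 phosphatase tiles at that level, beside 9.40% of all. The higher share at the kinase genes in the moderated test was thus not found with the unmoderated test.

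Much of the difference at these genes moved with a single library. WT replicate 1 was the lowest of the 6 libraries in 30 of 44 tested member tiles (68.2%), against 30.01% of all tested tiles. Without it, a higher KO mean was found in 30 of the 38 tiles (78.9%), against 58.9% of all tested tiles. The median difference over the 38 tiles then fell from 4.15 to 1.90 points, against 0.88 points over all. Tiles at an unadjusted p under 0.05 fell to 4 of 28 at the kinase genes (14.3%), close to the 10.97% of all tested tiles. Leaving out KO replicate 1, 2 or 3 also lowered them, to 6 of 29 (20.7%), 7 of 30 (23.3%) and 7 of 31 (22.6%). The shares of all tested tiles were then 8.90%, 8.15% and 8.49%. They were not lowered in number without WT replicate 2 or 3, at 15 of 29 (51.7%) and 13 of 31 (41.9%) kinase tiles. The shares of all tested tiles were 12.7% and 14.1% in those fits. Without WT replicate 1, all KO libraries lay above the remaining WT libraries in 12 of the 38 tiles (31.6%), beside 17.9% of all. The part of WT replicate 1 in these differences was otherwise not tested.

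Differences were concentrated at intermediate levels. In the band of 20% to 80% the kinase genes had 16 tiles with a median difference of 8.34 points, against 2.73 over all tiles of that band. Without WT replicate 1 these medians were 3.08 and 2.22, and without the Pik3c3 tiles the other 14 had a median of 9.998 points, or 3.72 without that library. The KO mean was higher in 13 of these 16, beside 68.5% of all tiles in the band, and every KO library was above every WT library in 4 of 16, beside 18% of all. The 3 phosphatase tiles in the band, the chosen Mtmr3 tile among them, had a median of 4.69 points, or 6.37 without WT replicate 1. Without Mtmr3 the other 2 had a median of 4.06 points, or 4.72 without that library. In the band over 80% to 95% the KO mean was higher in 13 of 16 kinase tiles and in 5 of 8 phosphatase tiles, beside 61.6% of all. Over 95% it was higher in 3 of 6 kinase tiles and 1 of 2 phosphatase tiles, beside 49.6% of all. The spread between libraries was wider in WT than in KO in 37 of the 44 tested member tiles (84.1%), against 66.5% of all. These 44 include the tiles of Mtmr3 and Pik3c3, and the median SD over the 44 was 5.35 points in WT and 2.10 in KO.

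**Figure D5:**
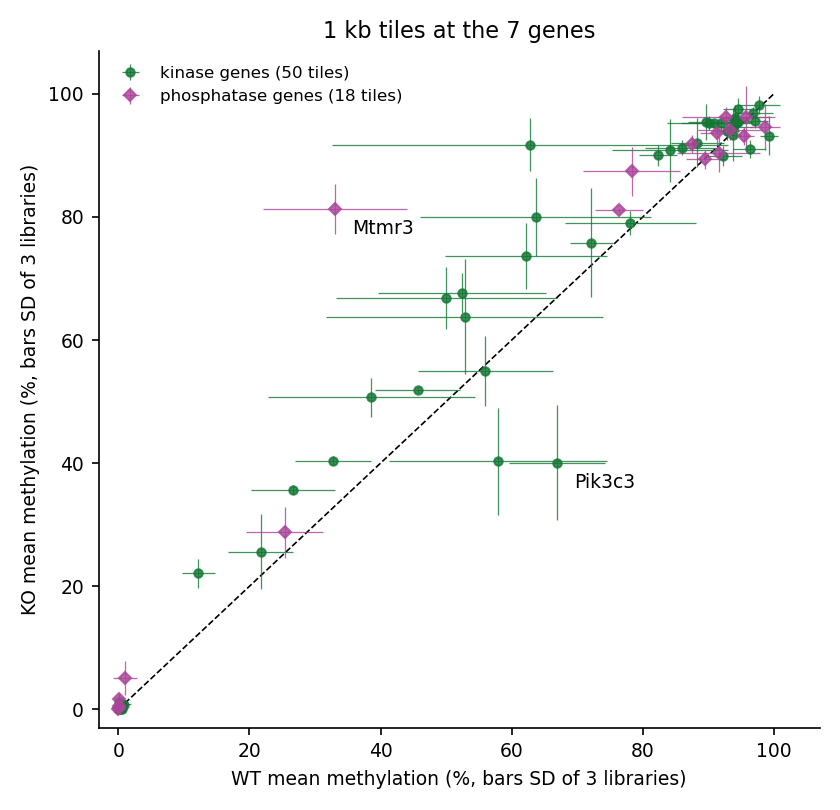
KO mean methylation (%) against WT mean methylation (%) of the 50 kinase tiles (green circles) and 18 phosphatase tiles (purple diamonds), with bars for the SD of 3 libraries and a dashed line of equality. Most tiles near 0% and 100% lie on the line, most at intermediate levels lie above it with wider WT bars, and Mtmr3 and Pik3c3 stand farthest from it.

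The wider pathway was described with a list of 72 other genes of phosphoinositide metabolism and signalling, of which 58 had a tested tile. Of their 296 tested tiles 7 (2.36%) were called higher and 0 lower by the limma-moderated quasi-binomial test, beside 0.685% and 0.00241% of all tested tiles. Pik3r2, the beta regulatory subunit of class I kinase and a paralogue of Pik3r1, had 2 of the 7. The Pik3r2 tile from 70768001 rose from 16.7% ± 7.68 in WT to 35.1% ± 2.38 in KO (18.5 points, adjusted p = 0.0313, same test). The Pik3r2 tile from 70774001 rose from 44.4% ± 11.7 to 67.4% ± 5.78 (23.1 points, adjusted p = 0.0405, same test).

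Pip4k2b, a kinase of phosphatidylinositol 5-phosphate, had 2 neighbouring called tiles, which rose by 14.4 and 21.2 points (adjusted p = 0.0369 and 0.0120, limma-moderated quasi-binomial test). Gab1, a docking protein that recruits class I kinase, had a tile that rose from 3.32% to 18.1% (adjusted p = 0.0488, same test). The called tiles counted for Pi4ka and Pip5k1c lie in their neighbours Snap29 and Tjp3, and rose by 28.3 and 16.7 points (adjusted p = 0.0104 and 0.0407, same test). The listed phosphatase genes had 27 tested tiles for 3-phosphatases, 5 for 4-phosphatases and 52 for 5-phosphatases and SAC domain phosphatases. None of these was called, and beside the 0.685% of all tested tiles that count does not set them apart. Over the whole list the KO mean was higher in 234 of 296 tested tiles (79.1%), beside 64% of all, and all KO libraries were above all WT in 66 (22.3%), beside 12.7% of all.

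The tiles of other protein-coding genes whose 6 library levels were nearest to the Mtmr3 tile lay in St3gal2, Grhpr and Msh4, at Euclidean distances of 13.7, 13.98 and 16.0 percentage points. The St3gal2 tile averaged 39.6% in WT and 78.5% in KO. For the Pik3c3 tile the nearest were in Ttbk1, Gnas and Dlc1, farther off at 23.2, 25.1 and 25.1 points. The nearest of these, in Ttbk1, averaged 57.9% in WT and 49.03% in KO, a smaller difference than that of Pik3c3.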

How the data were processed

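The 6 libraries were 3 Tet2 WT and 3 Tet2 KO. Per the submitters' processing notes, Bismark was used with GRCm38, whereas its version and settings were not given in the sources used here. Per the file headers, a deposited file has, for each CpG position and strand, a coverage count and the percent of reads with C and with T. No deposited coverage count was under 10. Methylated counts were recovered by multiplying and came out whole at 100% of positions, within a rounding of the percents by 0.0005 points. Reads of another base (0.0172% to 0.0189%) were left out. Libraries held 174375503 to 203863392 reads. PCR copies were not told apart from molecules.

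Positions covered in all 6 libraries (1463044 of 2029165 listed in any) were tested singly and summed over 1 kb tiles of at least 3 positions. Each feature with a mean level of 5% to 95% was fitted with a quasi-binomial logistic model, its dispersion on 4 degrees of freedom moderated with limma 3.58.1 in R 4.3.3, and p-values were adjusted by Benjamini-Hochberg over all tested features (Python 3.11.15, numpy 2.4.6, pandas 2.3.3). Group means are unweighted over libraries. Gene spans, promoters and sequences came from RefSeq tables of GRCm38.p6, and Mtmr3 and Pik3c3 had no promoter entry. Exons, introns and UTRs were not analysed here. Some of the cell type markers are not reported here.

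The members, the pathway list and the tests were chosen with earlier results of these data known. The rule for named genes took all 7 members, their tested tile with the largest difference and their CpG-densest tile, every called member tile or position, pathway genes with a called tile, and the 3 tiles nearest in pattern to the Mtmr3 and Pik3c3 tiles. Other member tiles and positions were singled out after their values were seen, for non-overlapping groups, wide spread or the opposite direction. Alternatives changed the test, the level filter, the coverage minimum, the tile grid, strand handling, weighting and the libraries used.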

Additional observations from a re-analysis of the deposited data

How the results depend on the processing

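Leaving out 1 library at a time, the difference of the Mtmr3 tile ranged from 42.7 to 53.7 points and that of the Pik3c3 tile from -30.9 to -21.8, and weighting positions equally gave 46.9 and -26.9. The number of calls depended on the test. With unmoderated dispersion 0 tiles (7633 at an unadjusted p under 0.05) and 35 positions were called among all tested, with 0 kinase tiles, 0 phosphatase tiles and 0 phosphatase positions. With limma on log2 ratios it was 0 tiles (7810 unadjusted) and 0 positions (34083 unadjusted), and 0 at the member genes. Without the filter on level it was 8 tiles and 207 positions, and 0 at the member genes. A grid shifted by 500 bp gave 2 kinase tiles in place of 1, and a coverage minimum of 20 gave 1 kinase position in place of 0, at Pik3ap1.

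Replicate numbers did not pair the libraries, with correlations of deviations of 0.0229, 0.0022 and 0.0037 for libraries of the same number. With the replicate block 900 tiles were called among all tested in place of 571, 0 positions in place of 1544, and 0 phosphatase positions in place of 3.

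Leaving out 1 library at a time gave 124 to 1164 called tiles and 545 to 3667 called positions among all tested. Kinase tiles ranged from 0 to 2, being 0 without WT replicate 1 or any of the KO libraries and 2 without WT replicate 2. The Pik3c3 tile was called in only 1 of these 6 fits, without WT replicate 2, and the single kinase tile called without WT replicate 3 was in Pik3cd. Kinase positions ranged from 0 to 8, and phosphatase positions from 3 to 5. The phosphatase tile stayed at 1, which was the Mtmr3 tile in each fit. The Mtmr3 and Pik3c3 tiles were chosen on this same contrast, so their calls are a description and nothing is read from them. The medians over all covered tiles, tested or not, were 1.39 points for kinases (1.09 to 2.18) and 1.13 for phosphatases (0.89 to 2.12). With all 6 libraries and positions weighted equally, they were 0.84 points for kinases and 1.18 for phosphatases. The count of tiles with a higher KO mean at the 5 other genes, 30 to 33 of 38, was added after seeing the data. The Pik3cd tile from 149658001 was called, at 22.4 points, without WT replicate 3 only (adjusted p = 0.0141, limma-moderated quasi-binomial test).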
